A study of Mus musculus with 6 samples.

Results

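mmu-miR-210-3p is 1 of 1247 mouse microRNAs (miRNAs) on each array of this series, and it was followed over all 6 arrays by its name in the array tables. It was chosen by its own signals on these same arrays, so its levels and differences between groups are given as a description, with no test. The groups were brain microglia, colon macrophages and liver macrophages (Kupffer cells), with 2 arrays each. All came from untreated wild-type male C57BL/6J mice, aged 6 weeks by the sample labels and 6 to 8 weeks by the design text, and 4 to 6 mice were pooled for each array. Cells were sorted straight from tissue within 5 h. The microglia gate took cells with an intermediate level of CD45 and with CD11b that lacked Ly6C and Ly6G, the colon gate took Ly6C-negative cells with CD45, CD11b, CD11c and CD64, and the liver gate took cells with CD45, CD11b, CD64 and MHCII. The microglia and liver gates also required a further macrophage surface antigen. These gates limit the groups to the cells that carry those surface markers, and the pools average over mice.

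miR-210 is best known as a miRNA of the response to low oxygen. When oxygen falls, the transcription factor HIF-1 is stabilised and induces the Mir210 gene in many cell types, and the mature miRNA represses, among other transcripts, that of the iron-sulfur cluster scaffold ISCU, which lowers mitochondrial respiration. HIF-1 is also active in macrophages during inflammation. The series measured no oxygen level, no HIF-1 and no mRNA, so these roles stand as background to the levels below.

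The mature strand is shown first because the results turn on it, with its seed (bases 2 to 8, which pair with target transcripts) in capitals, followed by its partner strand from the same hairpin. Sequences are from RefSeq, build GRCm38.p6, minus strand, with miR-210-3p at chr7:141221407-141221428 and miR-210-5p at chr7:141221445-141221466.
miR-210-3p: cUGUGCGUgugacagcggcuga
miR-210-5p: aGCCACUGcccaccgcacacug

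The 110-base hairpin of the Mir210 gene (chr7:141221384-141221493, minus strand) holds the 5p strand at bases 28 to 49 and the 3p strand at bases 66 to 87, which are the capitals below.
Mir210 hairpin: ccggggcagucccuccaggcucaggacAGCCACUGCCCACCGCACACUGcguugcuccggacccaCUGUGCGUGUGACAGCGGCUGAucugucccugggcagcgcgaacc

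In the RefSeq gene table of the same build, 0 annotated genes span Mir210. It lies between Rassf7 and the predicted gene Gm51460, with Phrf1 and Irf7 following. Of 1679 mature mouse miRNA names in the RefSeq sequence table, only miR-210-3p carries the seed UGUGCGU, and only 1 carries its bases 2 to 7. The array therefore held 0 other miRNAs of this seed among the 1017 of its 1247 names that the table lists, and the miRNA has no family member among them to compare with.

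Mature miR-210-3p was well above the detection limit in microglia and colon macrophages and near or below the detection limit in liver macrophages. The scanner signal, on a linear scale in arbitrary units, was 57.4 and 82.1 in the microglia arrays, 74.5 and 54.9 in the colon arrays, and 6.12 on liver replicate 2, while liver replicate 1 had no detected signal. On the microglia and colon arrays the signal was 10.5 to 12.1 times the error that the scanner software gave it, and on liver replicate 2 it was 3.07 times its error. The lowest signal counted as detected for any miRNA was 2.96 to 3.79 on the 6 arrays, so the liver signal of replicate 2 lay close to the limit of measurement. The partner strand miR-210-5p was detected on 0 of 6 arrays.

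After each array was scaled to the 75th percentile of the 248 miRNAs detected on all arrays, a common floor of 1.64 was set on the log2 scale for undetected miRNAs. Log2 levels of miR-210-3p were then 6.19 and 6.52 in microglia, 5.87 and 5.97 in colon macrophages, and 1.64 (the floor) with 2.50 in liver macrophages. Both microglia arrays stood above both colon arrays, and all 4 of these stood above both liver arrays, so no pair of groups overlapped on this scale. With 2 arrays per group such a separation is easily met, and its share over all miRNAs is not given here. Microglia and colon macrophages did overlap in the unscaled signals and after spike-in scaling, while liver macrophages stayed below both in all 6 other scalings. Group means were 6.36 ± 0.23 for microglia, 5.92 ± 0.07 for colon macrophages and 2.07 ± 0.61 for liver macrophages (SD, n = 2 arrays each), the liver SD being set in part by the floor. The order of the means was microglia, colon, liver. The first step of that order was narrow beside the replicate spread, since the lower microglia array and the higher colon array were 0.22 log2 units apart and the microglia replicates were 0.33 apart. The second step was wide, with 3.37 log2 units between the lower colon array and the higher liver array. In bulk RNA of sorted cells, fewer cells holding the miRNA and less of it in each cell cannot be told apart.

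**Figure D1:**
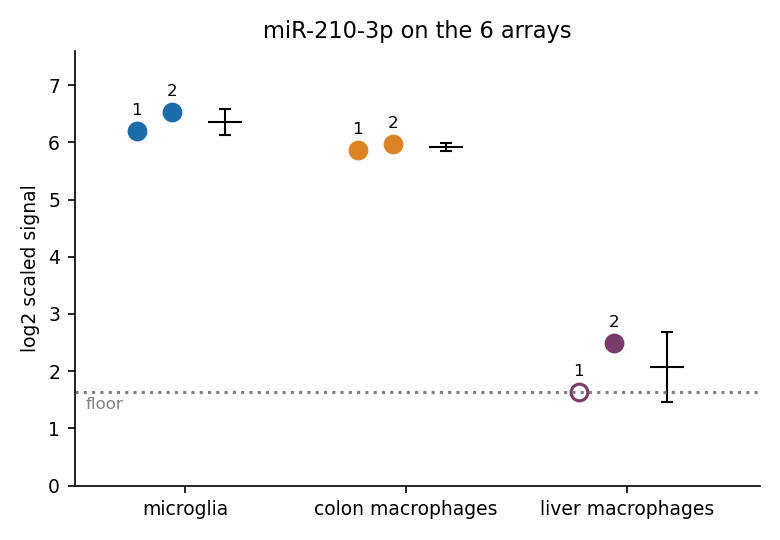
Log2 scaled signal of miR-210-3p (vertical axis) on each array (numbered points, filled where detected and open where not) in microglia, colon macrophages and liver macrophages. The bars are the group mean ± SD over 2 arrays, and the dotted line is the floor of 1.64. The 4 microglia and colon arrays sit between 5.87 and 6.52 and the liver arrays at 1.64 and 2.50.

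The first comparison set microglia against colon macrophages, gut cells that are renewed from blood monocytes. The microglia mean lay 0.44 log2 units (SE 0.37, a 1.35-fold difference) above the colon mean. The median difference of the 379 miRNAs tested in this comparison was -0.43, which puts miR-210-3p 0.86 above it. That excess was 0.58 with a floor 4 times as high and 0.44 without the detection filter, and the median of the 248 miRNAs detected on all arrays was -0.04. The size of the difference moved with the scaling. It was 0.94 after quantile normalization, 0.90 in the authors' value table and 0.82 with median scaling, but 0.10 with no scaling and 0.01 when arrays were scaled on the 4 detected Drosophila spike-in controls. Whether its amount differed between microglia and colon macrophages was not fixed by these arrays.

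Liver macrophages, which are mostly of embryonic origin as microglia are, made the second comparison. The microglia mean was 4.29 log2 units (SE 0.37, a 19.5-fold difference on the floored scale) above the liver mean. The median difference was -0.60 over the 382 tested miRNAs, but 0.03 over the 248 detected on all arrays. Only 1 of the 2 liver arrays measured miR-210-3p, so the size of its difference rests on the floor. It was 2.72 with a floor 4 times as high and 5.29 with a floor 4 times as low, and 3.88 with liver replicate 2 alone. Under the other scalings it was 3.95 to 5.96, the highest being that of the authors' value table, in which an undetected miRNA stands at 0.

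The third comparison set colon against liver macrophages. The colon mean was 3.85 log2 units (SE 0.37, 14.4-fold on the floored scale) above the liver mean, and the median of 396 tested miRNAs was -0.04. It was 2.28 with the higher floor, 4.85 with the lower floor and 3.45 with liver replicate 2 alone, and other scalings gave 3.75 to 5.06. The comparisons with liver macrophages share the liver arrays, so both carry the same undetected value of liver replicate 1. The SE is common to all 3 comparisons because 1 spread was fitted over the groups, and it is led by the liver replicates.

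**Figure D2:**
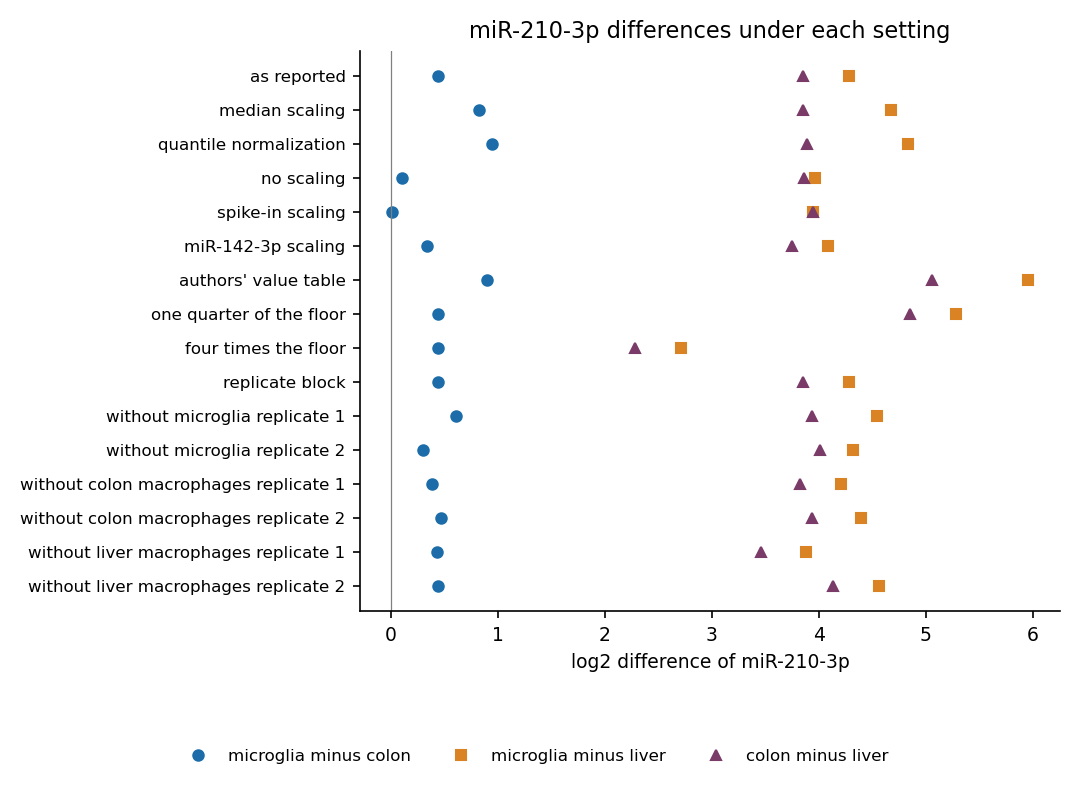
Log2 difference of miR-210-3p (horizontal axis) between each pair of groups, as reported (top row) and under each of 15 other settings (rows). The differences from liver macrophages lie at 2.28 or more in every row, and the difference between microglia and colon macrophages runs from 0.01 to 0.94.

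The authors' value table, on a log2 scale of unstated normalization, listed miR-210-3p at 6.78 and 6.92 in microglia, at 5.80 and 6.11 in colon macrophages, and at 0 and 1.79 in liver macrophages. The groups did not overlap in that table, again without a share over all miRNAs beside it, and they stood in the same order as in the scaled signals.

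The number of miRNAs detected was 300 and 330 on the microglia arrays, 403 and 352 on those of colon macrophages, and 386 and 389 on those of liver macrophages. miR-142-3p, a miRNA of all blood cell lineages, was at log2 levels of 12.08 and 12.31 in microglia, 11.89 and 12.30 in colon macrophages, with 11.24 and 12.04 in liver macrophages, and all 3 myeloid markers (miR-142-3p, miR-142-5p and miR-223-3p) were detected on every array. They were not all even across groups. miR-223-3p was at 8.27 and 8.47 in microglia, 12.67 and 12.83 in colon macrophages, and at 11.45 and 12.40 in liver macrophages. miR-142-5p was at 9.22 and 8.92, 8.67 and 9.15, and 8.57 and 8.88 in the same order. With each array scaled on its miR-142-3p signal, a setting chosen after the data were seen, the log2 difference of miR-210-3p was 0.34 between microglia and colon macrophages, 4.09 between microglia and liver macrophages and 3.75 between colon and liver macrophages. The liver replicates differed from each other by a median of 0.57 log2 units over the 248 miRNAs detected on all arrays, against 0.26 in microglia and 0.23 in colon macrophages. For miR-210-3p the liver replicates differed by 0.86, with 1 of them at the floor.

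Markers of other cell types were present and differed between arrays. Of 11 epithelial miRNAs, 10 and 3 were detected in microglia (summed scaled signals 1154 and 62.5), 11 on each array of colon macrophages (5837 and 4144) and 4 on each array of liver macrophages (224 and 490). miR-210-3p was at 6.19 on the microglia array with 10 of them and at 6.52 on the one with 3, which is 1 array each. Of the 2 strands of endothelial miR-126, microglia replicate 1 had only miR-126-3p (35.6) and replicate 2 had neither. Both strands were detected in colon macrophages (247 and 220 summed) and in liver macrophages (4140 and 2631). Of 3 erythroid miRNAs on the array, from a list of 5, miR-451a was detected everywhere and miR-144-3p only on microglia replicate 1, while miR-144-5p was not detected on any array. Their summed signals were 715 and 122 in microglia, 58.8 and 51.2 in colon macrophages, with 172 and 158 in liver macrophages. Of 4 neuronal miRNAs, 3 and 3 were detected in microglia (53.0 and 53.9 summed), 2 and 1 in colon macrophages (15.8 and 9.58) and 1 and 1 in liver macrophages (12.1 and 27.6), with miR-129-5p undetected throughout. Hepatocyte miR-122-5p was at 8.11 and 7.30 in microglia, undetected in colon macrophages and at 11.07 and 11.82 in liver macrophages. The other hepatocyte marker, its partner strand miR-122-3p, was detected only on liver replicate 2, at 3.865. Lymphocyte miR-150-5p was undetected in microglia, at 2.83 and 4.22 in colon macrophages, and at 8.97 and 7.09 in liver macrophages. The part of any of these cell types in the level of miR-210-3p was not tested.

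The miRNAs whose pattern over the 6 arrays came nearest to that of miR-210-3p were sought among the 249 others detected on every array that detected it. Likeness was the root mean square difference of log2 levels after each miRNA was centred on its own mean, so that a smaller value is more alike, and its median over the 249 was 1.97. The nearest were miR-146b-5p (0.64), miR-326-3p (0.93), miR-99a-5p (1.11), miR-345-5p (1.19) and miR-125b-5p (1.27). Their mature sequences are given with the seed in capitals to show that none of them shares the seed of miR-210-3p.
miR-146b-5p: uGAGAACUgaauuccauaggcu
miR-326-3p: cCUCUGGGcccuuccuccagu
miR-99a-5p: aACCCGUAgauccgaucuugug
miR-345-5p: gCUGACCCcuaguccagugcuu
miR-125b-5p: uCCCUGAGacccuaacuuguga

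miR-146b-5p, a brake on NF-kB signalling downstream of Toll-like receptors, came closest in shape, with log2 levels of 6.86 and 7.10 in microglia, 6.96 and 7.05 in colon macrophages, with 3.71 and 4.71 in liver macrophages. Its log2 difference was -0.02 between microglia and colon macrophages, 2.77 between microglia and liver macrophages and 2.79 between colon and liver macrophages, against 0.44, 4.29 and 3.85 for miR-210-3p. miR-326-3p, at 6.20 and 6.04 in microglia, 4.90 and 5.02 in colon macrophages, and at 3.09 and 3.51 in liver macrophages, stood in the same order of groups with a wider first step. miR-99a-5p and miR-125b-5p, which are encoded together in a conserved cluster, had microglia levels 2.49 and 1.93 log2 units above those of colon macrophages, where the difference of miR-210-3p was 0.44. miR-345-5p averaged 6.12 ± 0.19 in microglia, 5.27 ± 0.44 in colon macrophages and 4.05 ± 0.09 in liver macrophages (SD, n = 2 each). Under 6 other scalings miR-146b-5p stayed the nearest in each, and 4 or 5 of these 5 names stayed among the nearest. Scaling by 1 factor per array moves its detected miRNAs alike. The median, spike-in, miR-142-3p and unscaled settings could therefore alter likeness only through values at the floor. The ranking was not repeated with another floor, so its dependence on the undetected liver value is not known. Apart from miR-210-3p, only miR-29a-5p was detected on all arrays but liver replicate 1.

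**Figure D3:**
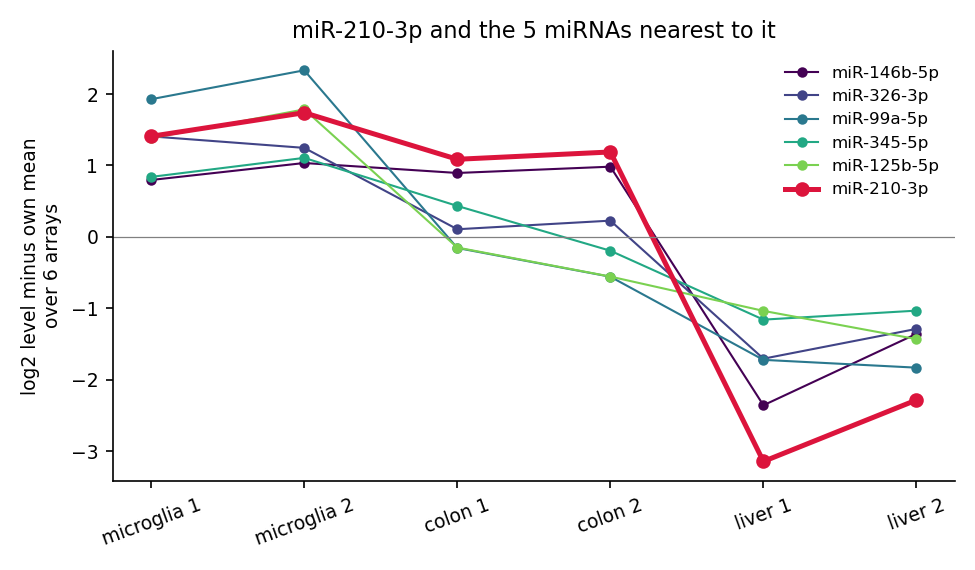
Log2 level minus the miRNA's own mean over the 6 arrays (vertical axis) for miR-210-3p (thick line) and the 5 miRNAs nearest to it, on each array (horizontal axis). Lines join the values of 1 miRNA and imply no order of arrays. miR-146b-5p follows the high microglia and colon values of miR-210-3p most closely, and all 6 miRNAs are lowest on the liver arrays.

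Other miRNAs linked to low oxygen were read from 2 lists. Both lists were chosen with earlier results of these data known. Their counts of calls and adjusted p-values therefore describe these arrays and are no independent support. The hypoxia-induced list holds 13 miRNAs of families reported to rise in cultured human cancer cells at low oxygen together with miR-210. They are miR-23, miR-24, miR-26, miR-27, miR-103, miR-107 and miR-181, with miR-181a-1-3p as the partner strand of miR-181a. Of the 13 tested between microglia and colon macrophages, 5 were higher in microglia and 0 lower by limma's adjusted p, where 17.7% and 28.5% of all 379 tested miRNAs were (1 member was lower by unadjusted p, miR-27b-3p). The list's median difference was 0.71, against -0.43 for all tested miRNAs and -0.04 for the 248 detected on all arrays, as 12 of the 13 members were. The 5 were miR-103-3p and 4 miR-181 strands, of which miR-181a-1-3p entered both microglia comparisons only through its detection in microglia. Between microglia and liver macrophages 6 of 13 were higher and 0 lower (0 by unadjusted p), where 21.2% and 31.7% of 382 were, and the median was 0.79, against -0.60 for all and 0.03 for the 248. Between colon and liver macrophages 1 of 12 was higher and 0 lower (0 by unadjusted p), where 5.30% and 4.80% of 396 were, and the median was 0.52, against -0.04 for all and 0.06 for the 248.

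The miR-181 family, best known from lymphocyte development, made up most of these calls. miR-181a-5p was at 9.73 and 9.99 in microglia, 7.19 and 7.09 in colon macrophages, and at 6.30 and 6.40 in liver macrophages. Its level in microglia exceeded that of colon macrophages by 2.72 log2 units (SE 0.25, adjusted p = 0.00177) and that of liver macrophages by 3.51 (SE 0.25, adjusted p = 0.000933). miR-181b-5p and miR-181c-5p were higher in microglia than in colon macrophages by 2.66 and 2.10 and than in liver macrophages by 3.34 and 2.61 (adjusted p = 0.00287, 0.0195, 0.00127 and 0.00736). Against colon macrophages the call of miR-181c-5p was made in 3 of 6 other scalings and was lost without any 1 of the 4 microglia and colon arrays. Against liver macrophages it was made in 5 of 6 and was lost without either microglia array. The partner strand miR-181a-1-3p was at 5.00 and 5.36 in microglia, was not detected on a colon or liver array. Its microglia level was at least 9.84-fold higher than in colon macrophages and at least 11.6-fold higher than in liver macrophages. Such a bound sets the mean of the detected group against, for each array of the other, the higher of its lowest detected signal and the floor. Over 5 other scalings of the signals the bounds were 7.84 to 11.8 and 8.21 to 13.2.

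miR-103-3p and miR-107-3p, which sit in introns of pantothenate kinase genes and act in lipid and glucose metabolism, followed with smaller differences. Against colon macrophages miR-103-3p was higher by 1.40 (adjusted p = 0.0332), and miR-107-3p stood 1.09 higher without passing (adjusted p = 0.0509). Against liver macrophages they were higher by 1.70 and 1.19 (adjusted p = 0.0164 and 0.0367). These 3 calls were each made in 3 of 6 other scalings and lost with no scaling, spike-in scaling and miR-142-3p scaling. Without microglia replicate 2 or either colon array all 3 were lost, those against liver macrophages also without liver replicate 1, and that of miR-107-3p also without microglia replicate 1. Sequences of the called strands are shown with seeds in capitals, because miR-103-3p and miR-107-3p are nearly identical, as are the 3 miR-181 5p strands, and whether their probes tell them apart was not tested.
miR-103-3p: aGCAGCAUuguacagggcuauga
miR-107-3p: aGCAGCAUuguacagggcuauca
miR-181a-5p: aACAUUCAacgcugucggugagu
miR-181b-5p: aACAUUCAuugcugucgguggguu
miR-181c-5p: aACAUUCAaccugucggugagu

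The members in the miR-23, miR-24, miR-26 and miR-27 families gave 1 call. miR-27b-3p was at 7.66 and 7.69 in microglia, at 8.72 and 8.44 in colon macrophages, and at 6.92 and 7.38 in liver macrophages, and was higher in colon than in liver macrophages by 1.43 (SE 0.29, adjusted p = 0.0448). Their differences between microglia and colon macrophages ran from -0.90 for miR-27b-3p to 0.71 for miR-26b-5p, and between microglia and liver macrophages from 0.29 for miR-23b-3p to 0.79 for miR-27a-3p. Counts of called members moved with the setting. Over 6 other scalings 3 to 9 members were higher against colon macrophages, 3 to 13 were higher in microglia than in liver macrophages, and 0 to 2 were higher in colon than in liver macrophages. Over all miRNAs tested, the same scalings gave 25 to 112 of 379, 34 to 124 of 382 and 11 to 20 of 396 higher calls. miR-181a-5p and miR-181b-5p were called in both microglia comparisons in each of these scalings, and also with each array left out. miR-181a-1-3p was called in all of these too, but against groups in which it was undetected and held at a constant value without spread. Its repeated calls therefore add little. Leaving out microglia replicate 2, colon replicate 1 or colon replicate 2 gave 3 higher members against colon macrophages, and leaving out either liver array gave 1 lower. Against liver macrophages 3 were higher without microglia replicate 2 and 11 without liver replicate 2, and between colon and liver macrophages the single call was lost without microglia replicate 2 or either colon array and became 2 without microglia replicate 1 or liver replicate 2.

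The HIF-1 list holds 8 miRNAs reported to act on HIF-1 alpha or on the machinery that degrades it, and so stands on the regulator's side of the pathway. Repressing HIF-1 alpha and repressing the machinery that degrades it have opposite effects. The list's counts and medians therefore give no direction for HIF-1. Of the 8, 4 were higher and 1 lower in microglia than in colon macrophages, where 17.7% and 28.5% of all tested miRNAs were, with a median of 0.88 against -0.43 for all and -0.04 for the 248. Against liver macrophages 5 were higher and 1 lower in microglia, where 21.2% and 31.7% of all were, with a median of 1.52 against -0.60 and 0.03. Between colon and liver macrophages 0 passed limma's adjusted threshold in either direction (0 by unadjusted p), where 5.30% and 4.80% of all were higher and lower, with a median of 0.41 against -0.04 and 0.06. miR-17-5p, miR-20a-5p and miR-20b-5p, of the miR-17-92 cluster and its paralog on the X chromosome, were higher in microglia than in colon macrophages by 1.38, 1.19 and 1.14 (adjusted p = 0.0241, 0.0301 and 0.0251) and than in liver macrophages by 1.67, 1.86 and 1.67 (adjusted p = 0.0106, 0.00626 and 0.00626). miR-18a-5p, of the same cluster, was 0.62 above colon macrophages without passing (adjusted p = 0.209) and higher than in liver macrophages by 1.38 (adjusted p = 0.0293). The miR-17 and miR-20 strands are close in sequence too, and whether their probes tell them apart was not tested. miR-322-5p, the mouse counterpart of human miR-424, which acts on the cullin 2 of the ligase that degrades HIF-1 alpha, was at 9.70 and 9.87 in microglia, 8.02 and 7.74 in colon macrophages, and at 7.67 and 8.33 in liver macrophages. Its differences from colon and liver macrophages were 1.91 and 1.78 (adjusted p = 0.011 and 0.00933). The miR-17-5p, miR-20a-5p, miR-20b-5p and miR-322-5p calls against colon macrophages were made in 3 to 5 of 6 other scalings. Against liver macrophages those of miR-20a-5p and miR-20b-5p were made in all 6, and those of miR-17-5p, miR-18a-5p and miR-322-5p in 4. The miR-18a-5p call was lost without any 1 microglia or colon array, and that of miR-322-5p against liver macrophages without microglia replicate 2.

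In the other direction miR-199a-5p, reported to repress HIF-1 alpha in rat heart muscle cells, was undetected in both microglia arrays, with levels of 5.84 and 5.34 in colon macrophages and of 5.36 and 4.64 in liver macrophages. It was at least 12.8-fold lower in microglia than in colon macrophages and at least 8.50-fold lower than in liver macrophages (adjusted p = 0.00177 and 0.00213, with the undetected group at the floor and so without spread). It entered both comparisons only through the group where it was detected, so these p-values depend on the filter and the floor. The same holds for the 1 lower call counted in each of them. Over 5 other scalings these bounds were 4.05 to 17.0 and 2.94 to 11.6. Its partner strand miR-199a-3p is a marker of smooth muscle and fibroblasts. Of the 4 such markers on the array, 1 and 0 were detected in microglia, 4 and 4 in colon macrophages, with 2 and 2 in liver macrophages. Their summed signals were 32.0 and 0 in microglia, 485 and 324 in colon macrophages, with 162 and 109 in liver macrophages. The part of those cells in the level of miR-199a-5p was not tested. miR-22-3p and miR-155-5p, 2 further miRNAs reported to act on HIF-1 alpha, did not pass in any comparison, and miR-155-5p was at 3.62 and 4.77 in microglia, 4.84 and 5.28 in colon macrophages, and at 5.72 and 5.19 in liver macrophages. With no scaling 1 member was higher against colon macrophages, with spike-in scaling 0 (1 by unadjusted p), and 0 when microglia replicate 2, colon replicate 1 or colon replicate 2 was left out (4 by unadjusted p in each). Against liver macrophages 2 were higher with no scaling or spike-in scaling and 3 without microglia replicate 2. Without either liver array 2 were lower against colon macrophages, and 2 were lower against liver macrophages without liver replicate 1.

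**Figure D4:**
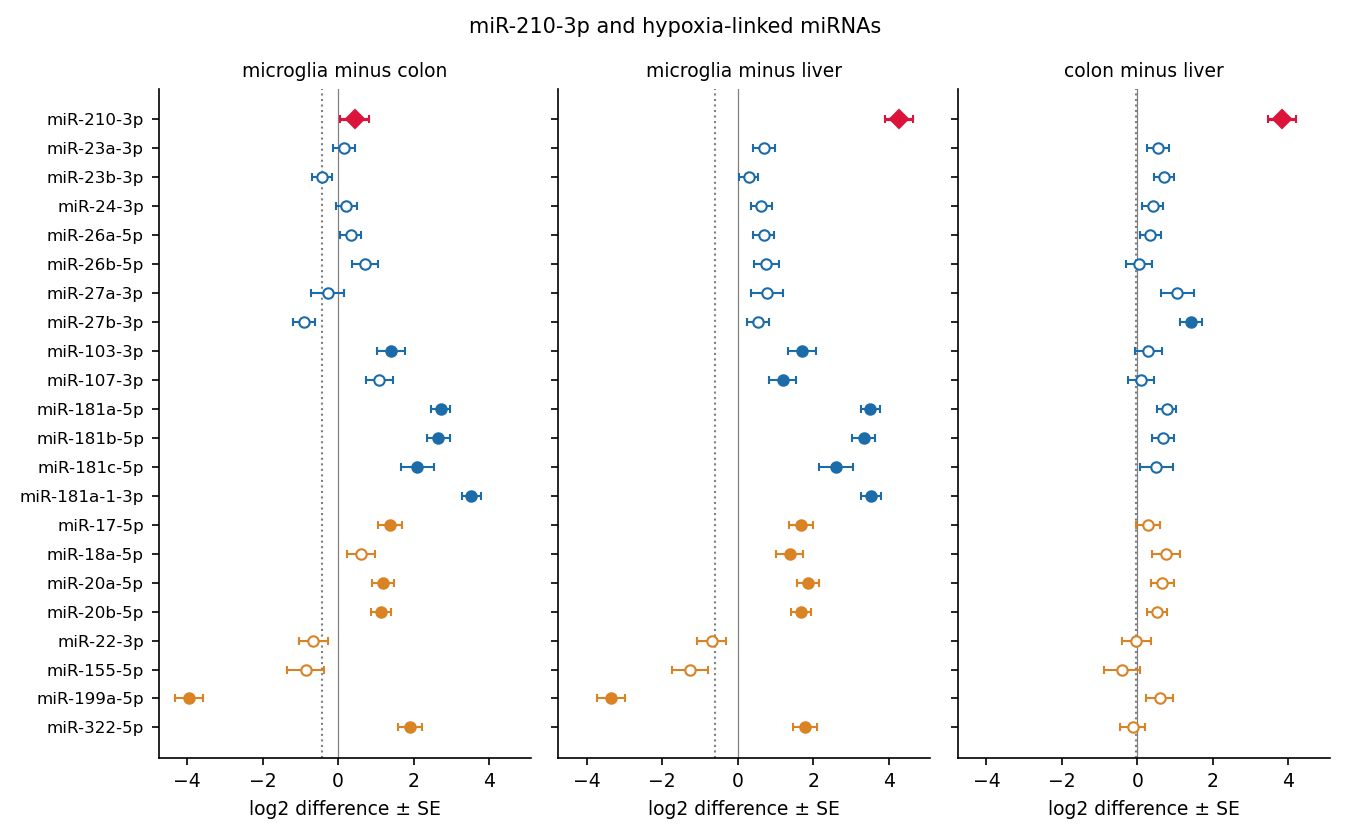
Log2 difference ± SE (horizontal axes, 1 panel per comparison) of miR-210-3p (diamond, no test), the hypoxia-induced list (from miR-23a-3p to miR-181a-1-3p) and the HIF-1 list (from miR-17-5p to miR-322-5p). Filled circles passed limma's adjusted threshold, open circles did not, and the dotted line is the median of all tested miRNAs. miR-210-3p lies 3.85 above zero between colon and liver macrophages, where the listed miRNAs run from -0.39 to 1.43.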

How the data were processed

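Per the labels' protocols, 100 ng of total RNA per array received Cy3 label for Agilent 1-colour miRNA arrays. Per the file headers, each deposited table gives per miRNA a total signal intensity on a linear scale, its error and a detection flag, a score of 1 or 0. The submitters' processing notes name Agilent Feature Extraction 9.1. The deposited value table of 595 miRNAs is on a log2 scale, with its normalization, centring and filter not stated, and served as an alternative. Undetected miRNAs carry a signal of 0.1.

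Here 21 control rows were left out, signals of an array were divided by the 75th percentile of its 248 miRNAs with a detected signal everywhere, undetected miRNAs were set to a floor of 3.12 scaled units (1.64 on the log2 scale, the median of the 6 arrays' lowest detected signals), and log2 was taken. limma 3.58.1 in R 4.3.3 fitted 3 group means over 6 arrays with eBayes (3 residual and 2.20 prior degrees of freedom over 414 miRNAs), 2-sided, with Benjamini-Hochberg adjustment over miRNAs that at least 1 of the compared groups had on both its arrays and a threshold of 0.05. Mice were pooled for each array, so p-values cover the spread between pools. The labels do not tie replicate numbers across groups, so whether pools of different organs shared mice is not known. Named miRNAs were miR-210 strands, miRNAs of its seed, list members and the 5 nearest in pattern. miR-210-3p, both lists and the marker miRNAs were chosen with earlier results of these data known. The tables hold no spots, slides or scan dates, so no normexp correction or slide block was run. The number of arrays limits the precision.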

Additional observations from a re-analysis of the deposited data

How the results depend on the processing

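miR-210-3p kept its direction in both comparisons with liver macrophages under the 15 alternatives run. Between microglia and colon macrophages its sign stayed positive, but not every alternative could change it. Both floor settings left 0.44 as it was, since the miRNA was detected on every microglia and colon array. Leaving out liver replicate 2 also gave 0.44. With no scaling and with spike-in scaling the levels of miR-210-3p overlapped between these groups, so those settings gave it no direction. Between microglia and colon macrophages its log2 difference of 0.44 became 0.82 with median scaling, 0.94 with quantile normalization, 0.90 in the authors' value table, 0.10 with no scaling and 0.00747 with spike-in scaling, and leaving out single arrays gave 0.30 to 0.61. Between microglia and liver macrophages 4.29 became 4.83 with quantile normalization, 5.96 (5.955) in the authors' value table, 5.29 with a floor 4 times as low and 2.72 with 4 times the floor. Between colon and liver macrophages 3.85 became 5.06, 4.85 and 2.28 in the last 3 of these. The replicate block could not move these differences, since each group has 1 array of each number, and with it they were 0.44, 4.29 and 3.85. Replicate numbers share no stated batch, and same-numbered arrays deviated together at r = 0.21, 0.07 and -0.09 over 248 miRNAs, so the numbers were not treated as pairs.

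Members of the hypoxia-induced list higher in microglia than in colon macrophages (5) numbered 9 with median scaling, 3 with no scaling, spike-in scaling or miR-142-3p scaling and 2 without the detection filter, and 3 to 7 with single arrays left out, with 0 to 1 lower. Against liver macrophages (6) they numbered 13 with median scaling, 10 with quantile normalization, 3 with miR-142-3p scaling or without the filter, and 3 to 11 with single arrays left out. Between colon and liver macrophages (1) they numbered 2 with median scaling, quantile normalization or 4 times the floor, and 0 with no scaling, spike-in scaling, miR-142-3p scaling, a floor 4 times as low, the replicate block or no filter (limma, with at least 1 by unadjusted p each time), and 0 to 2 with single arrays left out. Of the HIF-1 list, without the detection filter 0 were higher and 0 lower against colon macrophages (limma, with 4 and 1 by unadjusted p) and 1 higher and 0 lower against liver macrophages. miR-142-3p scaling gave 2 lower against liver macrophages. Scaling on the 75th percentile of all miRNAs was not run, since on microglia replicate 1 it is the placeholder 0.1. The causes were not tested.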
